A study of Mus musculus with 23 samples.

Results

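The genes described here carry out antigen presentation on major histocompatibility complex (MHC) class I: the heavy chains H2-Q10, H2-K1 and H2-D1, the light chain B2m, the peptide loading genes Tap1, Tap2 and Tapbp, the inducible proteasome subunits Psmb8 and Psmb9, and the class I regulator Nlrc5. They were taken by symbol from a table of 20308 gene symbols. All 10 were found, and all 10 were among the 13412 genes that passed the filter on low counts. H2-Q10 was selected on its level in these libraries, which earlier results showed far lower after castration than before, so its castration differences are given as a description, with no test. The other 9 genes were chosen as the pathway around it.

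The 23 libraries held RNA of the ventral prostate, taken from C57BL/6J mice. The mice had been on a diet enriched to 24 mg folic acid per kg, or on a control diet with 4 mg per kg, from in utero onward. On each diet the gland came from intact mice at 7 weeks of age, from mice 3 d after castration, or from mice 10 d after castration. The age at the start was given as 7 weeks for every group, the castrated ones included. Each folic acid group had 4 libraries, as did the control intact and control 10 d groups, while the control 3 d group had 3, numbered 1, 3 and 4. The labels speak of 4 mice per group, and each library was taken as 1 mouse. No group was sham-operated or left intact to the later age, so castration, surgery and age cannot be told apart. The libraries held whole gland, in which fewer cells of a type and less RNA per cell cannot be told apart.

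Class I molecules show peptides from inside the cell to T cells. The proteasome cuts proteins into peptides, the TAP1 and TAP2 transporter carries these into the endoplasmic reticulum, and tapasin, calreticulin and ERp57 hold the heavy chain with beta-2-microglobulin while a peptide is loaded. Interferons induce most of these genes, through IRF1 and NLRC5 among others. H2-K1 and H2-D1 are classical class I genes, displayed by nearly all cells, whereas H2-Q10 is a class Ib gene best known for a soluble protein that mouse liver secretes into blood.

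The libraries held 6.38 M to 15.6 M counts. Sbp, the gene of a secreted spermine-binding protein, took 49.3% to 59.8% of the counts in intact glands and 4.78% to 16.2% at 10 d. Levels are given in CPM, the usual count unit relative to library size, with the sizes multiplied by TMM factors of 0.553 to 1.69. With library totals alone in place of TMM, the median gene moved by log2 0.80 and 1.31 at 3 d and 10 d against intact under folic acid, and by 0.73 and 1.15 on the control diet. All directions here are therefore relative to most other genes in the same libraries. Each luminal epithelial marker (8 of 8, among them Krt8, Krt18 and Pbsn) was detected in every group, at summed medians of 3990 to 4410 CPM.

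H2-Q10 lies on chromosome 17 of GRCm38 at 35470089 to 35474563, on the plus strand. H2-K1 (33996017 to 34000347, minus strand) and H2-D1 (35262730 to 35267499, plus strand) are on the same chromosome. In GENCODE M21 the coding part of H2-Q10 has 975 bases and ends in exon 5, whereas that of H2-K1 runs through 8 exons with 1107 bases and that of H2-D1 through 8 exons with 1086 bases. Exon 5 of a classical class I gene encodes the stretch that spans the membrane. The coding bases of that exon are shown because they set the secreted chain apart from a membrane-bound one, for H2-Q10 at chr17:35473486-35473565 and for H2-D1 at chr17:35266187-35266303, both 5′ to 3′ on the plus strand, from the annotation's transcripts. Capitals in H2-D1 mark 13 bases that have no partner in H2-Q10 when the 2 exons are aligned:
H2-Q10: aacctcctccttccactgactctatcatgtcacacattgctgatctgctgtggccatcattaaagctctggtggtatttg
H2-D1: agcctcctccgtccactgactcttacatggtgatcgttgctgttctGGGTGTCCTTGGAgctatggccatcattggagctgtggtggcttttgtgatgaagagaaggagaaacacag

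Of the 80 coding bases of that H2-Q10 exon, 63 were identical to H2-D1 in this alignment, and 24 further bases of H2-D1 followed its end. Over the whole coding sequence H2-Q10 was 88.1% identical to H2-K1 and 89.6% identical to H2-D1, while H2-K1 and H2-D1 were 91.4% identical to each other. Close paralogs can trade reads in estimated counts. Of the 50-base windows of the H2-Q10 transcript, 89.0% occurred in no other annotated gene, against 91.2% for H2-K1 and 85.7% for H2-D1.

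H2-Q10 was abundant in intact glands and far lower after castration, on both diets. On the folic acid diet the intact libraries held 120, 121, 72.5 and 141 CPM, the 3 d libraries 2.9, 7.23, 4.21 and 6.36 CPM, and the 10 d libraries 2.6, 1.18, 3.99 and 3.14 CPM. With the control diet the intact libraries held 54.5, 103, 127 and 60.2 CPM, the 3 d libraries 4.93, 4.45 and 0.531 CPM, and the 10 d libraries 1.46, 0.386, 4.11 and 0.786 CPM. No castrated library came near an intact one: the highest after castration was 7.23 CPM and the lowest before it was 54.5 CPM. Within the castrated groups the control libraries spread more widely than the folic acid ones, with the lowest values at 0.531 CPM in control 3 d replicate 4 and 0.386 CPM in control 10 d replicate 2. These lowest levels rested on 6.33 and 5.36 estimated counts, while the folic acid 3 d libraries held 33.18 to 74.53.

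**Figure D1:**
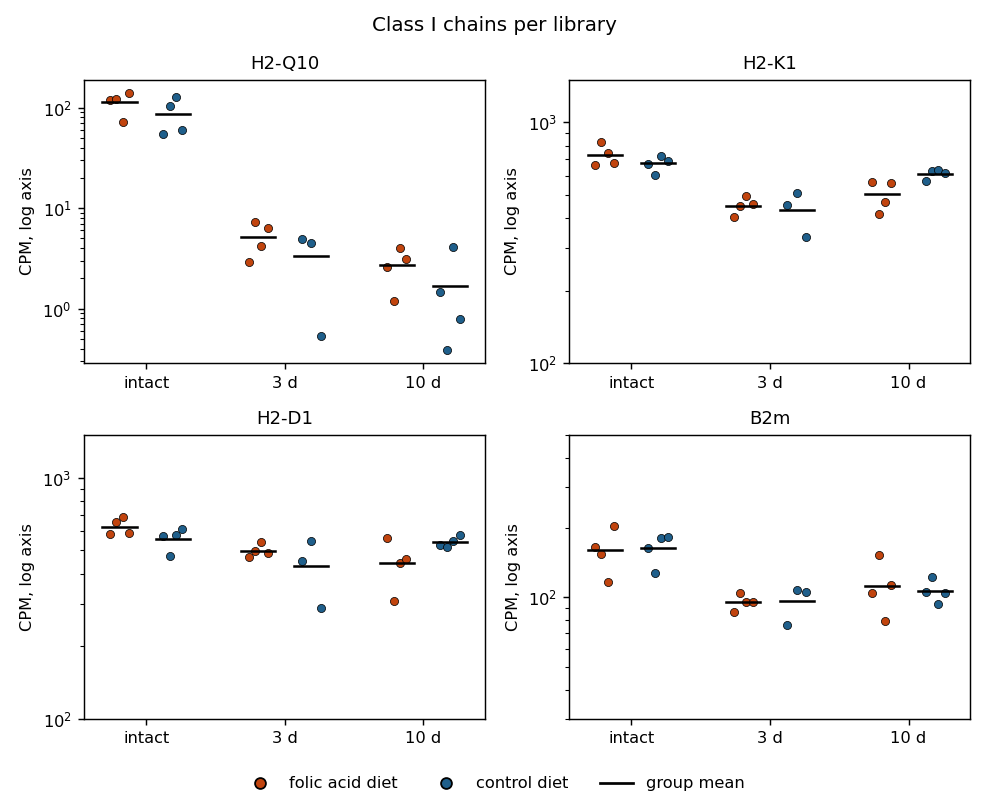
Each point is 1 library, with its level in CPM on a log axis for H2-Q10, H2-K1, H2-D1 and B2m, by state and diet, and each bar is a group mean. H2-Q10 lies at 54.5 CPM or above in intact glands and at 7.23 CPM or below after castration, while the other chains vary far less. The lower H2-K1, H2-D1 and B2m points after castration are relative to most genes, since all of these mean differences except that of B2m at control 3 d change sign or reach 0 with library totals alone.

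As group means, H2-Q10 stood at 5.17 ± 1.98 CPM at 3 d and 2.73 ± 1.18 CPM at 10 d on the folic acid diet, against 114 ± 29.1 CPM in intact glands (SD, n = 4 each). The control diet gave 3.31 ± 2.42 CPM at 3 d (n = 3) and 1.69 ± 1.68 CPM at 10 d (n = 4), against 86.2 ± 34.9 CPM in intact glands (n = 4). The fitted log2 change was -4.45 ± 0.60 (SE) at 3 d and -5.39 ± 0.63 at 10 d on the folic acid diet. In control mice it was -4.68 ± 0.68 at 3 d and -5.62 ± 0.64 at 10 d. H2-Q10 stayed lower with library totals alone, at log2 changes of -3.7 and -4.21 under folic acid and of -3.95 and -4.49 under the control diet. The control 10 d change rested most on replicate 3 of that group, without which it was -6.65. Fits without 1 library gave -4.66 to -4.25 and -5.61 to -5.14 at 3 d and 10 d under folic acid, and -5.08 to -4.2 at 3 d under the control diet.

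Per kilobase of transcript, the level of H2-Q10 in folic acid intact glands was 57.3 ± 14.6 CPM per kb. The genes above it there were H2-K1 at 450.0 ± 46 CPM per kb, H2-D1 at 298 ± 23.8 and B2m at 186 ± 42.3. Tapbp, next in order at 47.6 ± 4.35 CPM per kb, was within its spread. In folic acid 10 d glands H2-Q10 was at 1.37 ± 0.593 CPM per kb, within the spread of Nlrc5, the lowest, at 1.04 ± 0.819. In control 10 d glands it was at 0.849 ± 0.844 CPM per kb, beside Nlrc5 at 0.963 ± 0.307. These H2-Q10 levels were computed with a transcript of 1.991 kb. The H2-Q10 transcript of 1473 bases, used for the 50-base windows, would give higher levels. The order of H2-Q10 beside Tapbp and Nlrc5 therefore depends on the transcript chosen.

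The contrast between H2-Q10 and the classical genes was also read as a ratio of counts within each library, which does not depend on the scaling between libraries. On the folic acid diet H2-Q10 counts came to 0.338%, 0.772%, 0.413% and 0.677% of H2-K1 plus H2-D1 at 3 d, and to 0.233%, 0.168%, 0.444% and 0.312% at 10 d. The intact glands on that diet gave 9.66%, 8.16%, 5.07% and 11.1%. Among control mice the ratio was 0.552%, 0.426% and 0.0924% at 3 d, 0.138%, 0.0374%, 0.351% and 0.0686% at 10 d, and 4.39%, 9.53%, 9.78% and 4.62% in intact glands. All 15 castrated libraries thus lay below 1%, and all 8 intact libraries above 4%. The mean log2 ratio was lower by 3.97 at 3 d and by 4.91 at 10 d on the folic acid diet, which is 15.7-fold and 30.1-fold lower. For the control diet it was lower by 4.56 at 3 d and by 5.96 at 10 d, or 23.6-fold and 62.5-fold lower. Control 3 d replicate 4 and control 10 d replicate 3 moved these values most: without them the ratio was 13.6-fold lower at 3 d and 93.3-fold lower at 10 d. These differences are a description, since H2-Q10 was chosen for its fall.

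**Figure D2:**
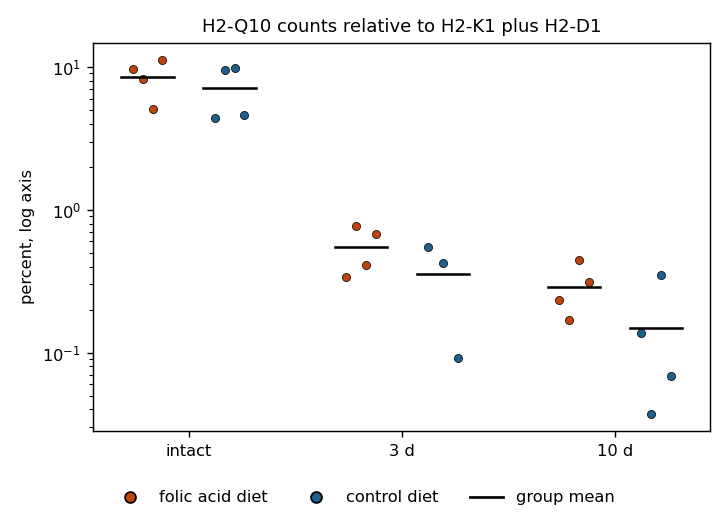
Each point is 1 library, with H2-Q10 counts as a percentage of H2-K1 plus H2-D1 counts on a log axis, by state and diet, and each bar is a group mean. The ratio lies between 4.39% and 11.1% in intact glands and between 0.0374% and 0.772% after castration.

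Of 32 class I heavy chain symbols looked for, 24 were in the table, 18 had any count and 12 passed the filter. H2-Q10 made up 0.411 ± 0.157% of all heavy chain counts at 3 d and 0.212 ± 0.085% at 10 d on the folic acid diet, against 6.31 ± 1.91% in intact glands. That intact share was about as large as those of the class Ib genes H2-T22 (6.28 ± 0.429%) and H2-T23 (6.02 ± 0.377%), and H2-K1 and H2-D1 together took most of the rest, at means of 39.9% (38.8% to 41.5%) and 34.3% (32.7% to 35.6%). With the control diet the share of H2-Q10 was 0.271 ± 0.184% at 3 d and 0.114 ± 0.115% at 10 d, against 5.24 ± 2.11% in intact glands. After castration H2-T22 held group mean shares of 3.88% to 6.19%, and each castrated library held 6.25% to 11.1% of its heavy chain counts in H2-T23.

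Upstream of the start sites, the heavy chain genes share a well-studied enhancer with a kappaB site, which NF-kappaB factors bind, and an interferon consensus sequence. RefSeq promoters of GRCm38.p6 were at hand for 8 of the 10 genes (not for Tap2 and Nlrc5). The windows of 70 bases around this site are shown because they are where H2-Q10 can be set beside the classical genes letter by letter, 5′ to 3′ on the strand of each gene. They are chr17:35469891-35469960 (plus strand) for H2-Q10, chr17:34000411-34000480 (minus strand) for H2-K1 and chr17:35262901-35262970 (plus strand) for H2-D1, and capitals mark the 11 letters of the kappaB site or of the stretch aligned with it:
H2-Q10: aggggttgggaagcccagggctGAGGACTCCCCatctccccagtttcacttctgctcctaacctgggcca
H2-K1: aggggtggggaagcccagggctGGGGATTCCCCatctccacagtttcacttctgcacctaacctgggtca
H2-D1: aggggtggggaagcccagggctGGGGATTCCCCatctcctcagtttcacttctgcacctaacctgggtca

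Counted from 1 at the 5′ end of the site, H2-Q10 had the substitutions G2A and T6C relative to H2-K1 and H2-D1. Each motif was searched on both strands of the 250 bases before the start. The 11 letters in capitals in H2-K1 and H2-D1 occurred in 10 of 32851 RefSeq promoters (0.0304%). The longest run shared by all 3 windows after the site, CAGTTTCACTTCTGC, holds the interferon consensus. It was taken from these promoters themselves and occurred in 7 promoters (0.0213%). The other motifs were the interferon-stimulated response element (in 2.98% of promoters), the androgen response element (in 0.387%), the CCAAT box (letters CCAAT, in 33.8%) and an X2 box (letters TGACGC, in 6.12%). The H2-Q10 promoter held no match to any of these 4 strings, whereas those of H2-K1 and H2-D1 held a CCAAT box and an X2 box. B2m held a CCAAT box and, of the 8 genes, alone a match to the letters searched for the interferon-stimulated response element. The interferon consensus in the heavy chain windows does not match those strict letters. The missing match therefore does not show that the heavy chain genes lack such an element. No match of 1 motif overlapped a match of another in the promoters of these genes. A match is a string of letters and says nothing of binding.

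Among the 9 tested genes, H2-K1, H2-D1 and B2m were the ones that fell after castration, relative to most genes, and Psmb8 was the one that rose. At 3 d on the folic acid diet 2 of 9 were called, both lower, where 14.3% of all tested genes were called (adjusted p under 0.05, edgeR quasi-likelihood test). At 10 d on that diet 4 of 9 were called, 1 higher and 3 lower, where 21.9% of all genes were. Among control mice 3 of 9 were called at 3 d, 1 higher and 2 lower (9.98% of all genes), and 2 of 9 at 10 d, 1 higher and 1 lower (16.6%). The median log2 change of the 9 genes was -0.21, -0.18, 0.11 and -0.04 in these 4 comparisons, beside 0.01, 0.07, -0.01 and 0.05 over all tested genes. The comparisons at 3 d and 10 d on a diet share their intact libraries.

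**Figure D3:**
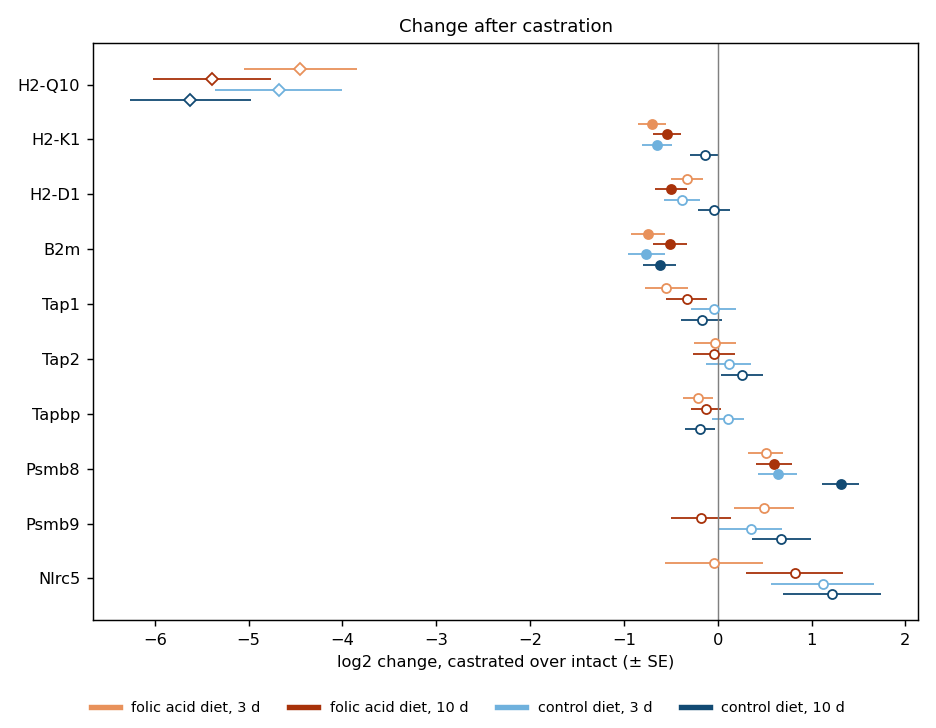
Log2 change of each gene with its SE, castrated over intact, in 4 colours for diet and time. Filled circles passed the test, open circles did not, and diamonds (H2-Q10) were not tested. H2-Q10 lies between -5.62 and -4.45, while the other 9 genes lie between -0.76 and 1.31 on a scale relative to most genes, and with library totals alone the negative values of the classical genes become positive or, for B2m at 3 d, reach about 0.

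H2-K1, a classical heavy chain, held 403, 449, 493 and 456 CPM at 3 d and 565, 417, 466 and 558 CPM at 10 d on the folic acid diet, against 664, 828, 746 and 680 CPM in intact glands. Under the control diet it held 451, 508 and 333 CPM at 3 d and 568, 624, 634 and 614 CPM at 10 d, against 671, 606, 725 and 693 CPM in intact glands. All 3 d libraries, and the folic acid 10 d libraries, lay below the intact libraries of their diet, while the control 10 d libraries overlapped with them. Of all tested genes 9.99% and 11.1% were lower without overlap at 3 d and 10 d under folic acid, and 13.9% and 13.1% under the control diet. With edgeR's quasi-likelihood test H2-K1 fell by 0.70 ± 0.15 (log2, SE; adjusted p = 0.00166) at 3 d and by 0.54 ± 0.15 (adjusted p = 0.00899) at 10 d on the folic acid diet. With the control diet it fell by 0.65 ± 0.16 at 3 d (adjusted p = 0.00868), and the change at 10 d was -0.14 ± 0.15 (adjusted p = 0.593). With library totals alone the values were 0.09, 0.70, 0.09 and 0.96, which are 0.71, 0.61, 0.64 and 0.19 below the median gene under that scaling. Without control 3 d replicate 4 the control 3 d change was -0.49 (adjusted p = 0.107). Without 4 libraries that stand apart in muscle or stromal transcripts (folic acid intact 3, folic acid 10 d 2 and 3, control intact 2), the folic acid 10 d change was -0.37 (adjusted p = 0.257).

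H2-D1, the other classical heavy chain, moved less. At 10 d on the folic acid diet it held 563, 309, 444 and 461 CPM, against 583, 652, 685 and 588 CPM in intact glands, with no overlap (as for 11.1% of all tested genes, in the lower direction) but with 1 library just below the lowest intact one. It fell there by 0.50 ± 0.17 on the log2 scale (edgeR adjusted p = 0.0375), while library totals alone gave 0.74, of opposite sign and 0.57 below the median gene. The call was lost in 5 of 8 fits without 1 library: without folic acid intact replicate 2 (adjusted p = 0.078) or 3 (0.0987), and without folic acid 10 d replicate 2 (0.149), 3 (0.0629) or 4 (0.054). The changes at 3 d were -0.33 ± 0.17 on the folic acid diet (adjusted p = 0.22) and -0.38 ± 0.19 on the control diet (adjusted p = 0.222). At 10 d on the control diet H2-D1 was at 541 CPM, against 558 CPM in intact glands, with a log2 change of -0.04 ± 0.17 (adjusted p = 0.905).

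B2m, the light chain that every class I molecule needs, is on chromosome 2 (122147686 to 122153083). On the folic acid diet it held 86.7, 104, 95.7 and 95.3 CPM at 3 d and 104, 152, 79.4 and 113 CPM at 10 d, against 165, 154, 116 and 204 CPM in intact glands. In control mice it held 75.8, 108 and 105 CPM at 3 d and 105, 123, 93.5 and 104 CPM at 10 d, against 164, 127, 181 and 182 CPM in intact glands. The castrated libraries lay below all intact ones of their diet except at 10 d on the folic acid diet, where 1 library at 152 CPM lay above the lowest intact library. Of all tested genes 9.99% were lower without overlap at 3 d under folic acid, and 13.9% and 13.1% at 3 d and 10 d under the control diet.

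B2m was the 1 gene of the 9 called in all 4 castration comparisons (edgeR, adjusted over all genes). It fell by 0.74 ± 0.18 on the log2 scale at 3 d (adjusted p = 0.00453) and by 0.51 ± 0.18 at 10 d (adjusted p = 0.0388) on the folic acid diet. Among control mice it fell by 0.76 ± 0.20 at 3 d (adjusted p = 0.00908) and by 0.62 ± 0.18 at 10 d (adjusted p = 0.0139). With library totals alone the changes were 0.00 and 0.73 on the folic acid diet and -0.02 and 0.48 on the control diet, which are 0.80, 0.58, 0.75 and 0.67 below the median gene. The folic acid 10 d call was lost without folic acid intact replicate 1, 2 or 4 (adjusted p = 0.0759, 0.0592 and 0.148), and without folic acid 10 d replicate 1, 3 or 4 (0.0864, 0.145 and 0.0645). The control 3 d call was lost without control 3 d replicate 1 (0.0852), and the control 10 d call without replicate 3 of the control intact group (0.0508) or of the control 10 d group (0.05).

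Because reads can be divided between heavy chain genes, all of them except H2-Q10 were also added into 1 sum. This sum averaged 1250 ± 54.5 CPM at 3 d and 1270 ± 172 CPM at 10 d on the folic acid diet, against 1710 ± 173 CPM in intact glands (SD, n = 4 each). For the control diet it averaged 1130 ± 230 CPM at 3 d (n = 3) and 1470 ± 30 CPM at 10 d, against 1570 ± 123 CPM in intact glands. In the edgeR fit the sum fell by 0.45 (adjusted p = 0.0427) and 0.44 (adjusted p = 0.0389) on the folic acid diet. The control changes were -0.47 (adjusted p = 0.0729) at 3 d and -0.09 (adjusted p = 0.771) at 10 d. Among the other heavy chain genes, H2-T22, a class Ib gene whose product binds certain gamma-delta T cell receptors, fell in every castration comparison, under folic acid by 0.80 and 1.08 and under the control diet by 0.71 and 0.95 (edgeR adjusted p = 0.000405, 3.7e-06, 0.00406 and 2.29e-05). Of the H2-T22 transcript's 50-base windows 53.6% occurred in no other gene, so its counts rest on fewer distinctive positions than those of H2-Q10. H2-T23, which encodes Qa-1, had changes of -0.04, 0.27, 0.00 and 0.32 that did not pass the test. The Q-region genes H2-Q1, H2-Q2, H2-Q4, H2-Q6 and H2-Q7, neighbours of H2-Q10, lay between -0.59 and 0.46, with none called. Of the windows of these Q-region genes 59.8% (H2-Q7) to 91.3% (H2-Q2) occurred in no other gene. H2-Q5, H2-Q8 and H2-Q9 were not among the symbols measured, so the counts of these neighbours may hold reads of other genes. With edgeR 2, 3, 2 and 1 of 11 tested heavy chain genes fell in the 4 comparisons and 0 rose, at medians of -0.33, -0.36, -0.11 and 0.27. Of all tested genes 14.3%, 21.9%, 9.98% and 16.6% were called in the same comparisons, so most of these counts are near the background.

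Tap1 and Tap2 (chromosome 17, 34187553 to 34197225 and 34203527 to 34216321) encode the peptide transporter, and Tapbp (33915899 to 33929292) encodes tapasin, which bridges it to the heavy chain. None of the 3 was called after castration. Tap1 came closest, at 16.1, 15.3, 20.4 and 19.6 CPM at 3 d on the folic acid diet, against 25.8, 24.7, 29.9 and 24.1 CPM in intact glands. The groups did not overlap, and 9.99% of all tested genes were likewise lower without overlap. The log2 change of Tap1 was -0.55 ± 0.23 (edgeR adjusted p = 0.108). Its other changes were -0.33 at 10 d on the folic acid diet, and -0.04 and -0.17 at 3 d and 10 d on the control diet. Tap2 group means lay between 75.7 and 90.9 CPM and Tapbp means between 118 and 145 CPM over all 6 groups, with log2 changes after castration from -0.04 to 0.26 for Tap2 and from -0.21 to 0.11 for Tapbp. With library totals alone Tap2 and Tapbp changed by 0.60 to 1.38, which is -0.23 to 0.23 relative to the median gene. Psmb9 and Tap1 overlap on opposite strands between 34187553 and 34187764, where reads cannot be told apart unless strand was used.

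The chaperones of the same complex moved more than the transporter. Of 11 tested genes of peptide loading and trimming, B2m and the Tap genes included, 5 fell in each castration comparison and 1 rose at 3 d on the folic acid diet (Lnpep). The medians were -0.55 and -0.48 on the folic acid diet and -0.04 and -0.40 on the control diet. Of all tested genes 14.3% and 21.9% were called at 3 d and 10 d under folic acid, and 9.98% and 16.6% under the control diet. Pdia3, which encodes ERp57, fell under folic acid by 1.27 and 1.37 and under the control diet by 1.78 and 1.33 (edgeR adjusted p = 7.01e-07, 7.39e-08, 1.11e-08 and 1.24e-07). Calr, which encodes calreticulin, stood at 1430 ± 445 CPM at 3 d and 1210 ± 409 CPM at 10 d, against 5170 ± 1040 CPM in intact glands on the folic acid diet (SD, n = 4 each). It fell by 1.85 and 2.10 there and by 2.72 and 2.24 on the control diet. Canx (calnexin) and Uggt1, a folding sensor, fell in all 4 comparisons, Canx by 0.56 to 0.97 and Uggt1 by 0.67 to 1.60. These chaperones serve secreted proteins in general, and Sbp alone took 4.78% to 16.2% of the counts at 10 d, against 49.3% to 59.8% in intact glands. Its part in these falls was not tested.

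Psmb8 (chromosome 17, 34197721 to 34201454) encodes the inducible proteasome subunit that takes the place of Psmb5. Under the control diet it held 65.3, 54.4 and 39.7 CPM at 3 d and 57.7, 129, 77.1 and 75.7 CPM at 10 d, against 36.1, 32.2, 36.1 and 32.4 CPM in intact glands. On the folic acid diet it held 53.7, 60.3, 64.8 and 56.5 CPM at 3 d and 70.7, 50.9, 56.4 and 73 CPM at 10 d, against 46.9, 45.8, 35.1 and 36.8 CPM in intact glands. Every castrated library was above every intact library of its diet, as for 7.56% and 9.37% of all tested genes at 3 d and 10 d under folic acid and 11.2% and 11.8% under the control diet. Psmb8 rose by 1.31 ± 0.20 on the log2 scale at 10 d among control mice (edgeR adjusted p = 7.2e-06), a call kept in all 8 fits without 1 library.

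The other Psmb8 calls were near the threshold. Psmb8 rose by 0.60 ± 0.19 at 10 d on the folic acid diet (edgeR adjusted p = 0.0235) and by 0.64 ± 0.21 at 3 d on the control diet (adjusted p = 0.0466), and its change at 3 d on the folic acid diet was 0.51 ± 0.19 (adjusted p = 0.0781). The folic acid 10 d call was lost without folic acid intact replicate 3 or 4 (adjusted p = 0.0789 and 0.0553) and without folic acid 10 d replicate 1 or 4 (0.0654 and 0.0733). The control 3 d call was lost without any one of the 4 control intact libraries (0.0742, 0.107, 0.077 and 0.0991), and without control 3 d replicate 1 (0.255) or 3 (0.099).

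Psmb9 (34181987 to 34187764, minus strand), which takes the place of Psmb6, was at 14 ± 4.13 CPM at 3 d and 8.78 ± 3.09 CPM at 10 d on the folic acid diet, against 9.94 ± 1.54 CPM in intact glands. With the control diet it was at 12.2 ± 6.93 CPM at 3 d and 15.4 ± 4.34 CPM at 10 d, against 9.57 ± 1.92 CPM in intact glands. Its log2 changes were 0.49, -0.18, 0.35 and 0.68, none called (edgeR adjusted p = 0.344, 0.731, 0.606 and 0.142). The 0.35 at 3 d on the control diet was -0.20 without control 3 d replicate 3, whose level of 20.2 CPM was above the 8.01 and 8.4 CPM of the other 3 d libraries of that diet.

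Set against the constitutive subunit it replaces, as a ratio of counts within each library, Psmb8 was higher after castration in every comparison. On the folic acid diet Psmb8 counts came to 114%, 203%, 250% and 149% of Psmb5 at 3 d and 145%, 144%, 156% and 123% at 10 d, against 66.8%, 50.5%, 46.7% and 56.3% in intact glands. In control mice they came to 146%, 206% and 130% at 3 d and 122%, 164%, 163% and 180% at 10 d, against 50.7%, 47.9%, 53.2% and 54.0% in intact glands. No castrated library overlapped an intact one. The log2 ratio rose under folic acid by 1.65 and 1.37 and under the control diet by 1.62 and 1.60. Each has a two-sided exact permutation p of 0.0286, the smallest these group sizes allow, and 0.049 after adjustment over 12 ratio tests. Psmb5 itself fell under folic acid by 1.10 and 0.75 and under the control diet by 0.98 at 3 d (edgeR adjusted p = 0.000506, 0.00977 and 0.00491), with -0.31 at 10 d (adjusted p = 0.364). Both the higher Psmb8 and the lower Psmb5 thus entered this ratio.

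The ratio of Psmb9 to Psmb6 rose by 0.85 at 3 d on the folic acid diet and by 0.69 at 10 d on the control diet (exact permutation test, adjusted p = 0.049 each). It differed by 0.11 at 10 d on the folic acid diet (adjusted p = 0.771) and by 0.72 at 3 d on the control diet (adjusted p = 0.171). The ratio of Psmb10, the third inducible subunit, to Psmb7 rose by 0.68 at 10 d on the control diet (adjusted p = 0.049), and its other differences were 0.58, 0.53 and 0.63 (adjusted p = 0.187 each). With fewer libraries the exact test cannot pass the adjusted threshold in most cases. Without the 4 libraries named above the Psmb8 to Psmb5 differences were 1.58, 1.22, 1.58 and 1.56 (adjusted p = 0.0857, 0.171, 0.171 and 0.0857).

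**Figure D4:**
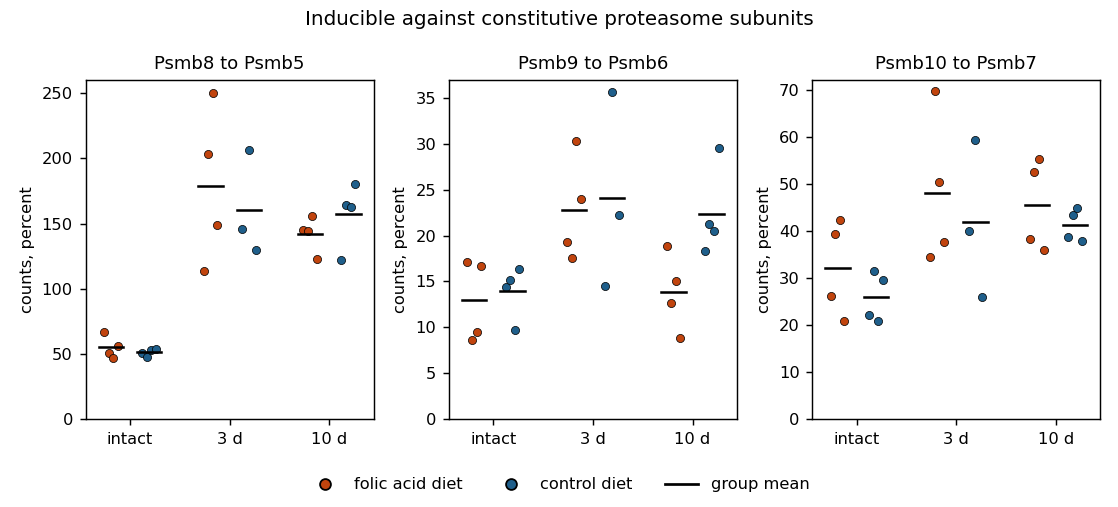
Each point is 1 library, with counts of an inducible proteasome subunit as a percentage of the constitutive subunit it replaces, by state and diet, and each bar is a group mean. For Psmb8 to Psmb5 all castrated libraries lie between 114% and 250% and all intact ones between 46.7% and 66.8%, whereas for the other pairs some groups overlap.

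In the list of 11 proteasome and activator genes, 0 rose and 4 fell at 3 d on the folic acid diet, 2 rose and 4 fell at 10 d, and on the control diet 2 rose and 1 fell at each time (edgeR). Beside these counts stand 14.3%, 21.9%, 9.98% and 16.6% of all tested genes called, in the same order of comparisons, and list medians of -0.40, -0.36, -0.18 and 0.03. Beside Psmb8 it was Psme1, a subunit of the interferon-inducible PA28 activator, that rose: by 0.54 at 10 d on the folic acid diet (adjusted p = 0.0217) and by 0.65 and 1.10 at 3 d and 10 d on the control diet (adjusted p = 0.0175 and 1.42e-05). Genes that fell in at least 1 comparison were the constitutive subunit Psmb5, the activator Psme4 and, on the folic acid diet, the constitutive subunit Psmb7, the activator Psme3 and the assembly factor Pomp. Psmb6, the constitutive partner of Psmb9, had changes of -0.41, -0.36, -0.47 and 0.01 that did not pass the test.

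Nlrc5 (chromosome 8, 94434356 to 94527272), a transactivator of class I genes, was the lowest of the 10 genes in intact glands. On the folic acid diet it held 2.46, 5.4, 5.53 and 4.02 CPM at 3 d and 5.64, 15.7, 9.22 and 1.02 CPM at 10 d, against 5.16, 4.14, 5.6 and 2.93 CPM in intact glands. Control mice had means of 6.82 CPM at 3 d and 7.3 CPM at 10 d, against 3.14 CPM in intact glands. The control 10 d libraries, from 5.26 CPM up, lay just above all control intact ones, which reached 5.08 CPM. In that comparison 11.8% of all tested genes were higher without overlap. Under folic acid the 10 d levels of Nlrc5 spread to both sides of the intact ones. The log2 changes were -0.04 ± 0.52, 0.82 ± 0.52, 1.12 ± 0.55 and 1.22 ± 0.52, none called (edgeR adjusted p = 0.973, 0.274, 0.222 and 0.113). When the fit held the compared groups alone, the control 10 d change passed at 1.21 (adjusted p = 0.0392). Without the 4 libraries that stand apart the folic acid 10 d value was -0.28.

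Of 26 tested regulators of class I genes or of interferon signalling, 2 rose and 2 fell at 3 d and 3 rose and 3 fell at 10 d on the folic acid diet, and 3 rose and 2 fell at 3 d and 1 rose and 2 fell at 10 d on the control diet. Of all tested genes 14.3% and 21.9% were called at 3 d and 10 d under folic acid, and 9.98% and 16.6% under the control diet, so most of these counts are near the background. Irf1, an interferon-induced activator of class I promoters, had log2 differences of 0.06 to 0.32 that did not pass the test. Stat2 fell in all 4 comparisons, by 0.75 to 1.11. Ifng was below the filter. Creb1, which encodes a factor of the class I enhanceosome, rose by 0.81 at 10 d under folic acid and by 0.73 and 0.88 at 3 d and 10 d under the control diet, with 0.43 at 3 d under folic acid (edgeR adjusted p = 0.0598).

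Hepatocyte markers were also read, because H2-Q10 is known above all from liver. The 8 markers, Alb and Apoa1 among them, summed to at most 5.17 CPM in any folic acid library and to at most 6.76 CPM in any control library. Apoa2 was at 0 in all 23, whereas Cyp2e1 was at 0 in 2 and reached 49.26 estimated counts. H2-Q10 itself was at 7.23 CPM or below after castration, a level of similar size to these sums. Skeletal muscle markers (5 of 5 in the table) had summed medians of 14.1 CPM at 3 d and 4.29 CPM at 10 d, against 102 CPM in intact glands under folic acid. The control medians were 21.3 CPM at 3 d and 7.9 CPM at 10 d, against 102 CPM, with 1 intact library at 3000 CPM. Without the 4 libraries that stand apart, this one included, H2-Q10 changed by -4.62 and -5.48 under folic acid and by -4.58 and -5.52 under the control diet, about as much as with them. Summed immune markers were higher after castration, as was Psmb8. Of 17 tested macrophage and dendritic cell markers 5 and 11 rose at 3 d and 10 d under folic acid, and 7 and 8 under the control diet (edgeR). Of 13 tested T and NK cell markers 0 and 1 rose under folic acid, and 0 and 1 under the control diet. In the same order 14.3%, 21.9%, 9.98% and 16.6% of all tested genes were called. The summed macrophage and dendritic cell markers (17 of 18 in the table, none at 0) ranged over 245 to 285 CPM at 3 d and 230 to 720 CPM at 10 d, against 83.7 to 174 CPM in intact glands on the folic acid diet. Among control mice they ranged over 307 to 387 CPM at 3 d and 260 to 433 CPM at 10 d, against 105 to 155 CPM in intact glands. Their summed median for control mice was 354 CPM at 3 d and 339 CPM at 10 d, where Psmb8 averaged 53.1 and 84.9 CPM. T and NK cell markers (15 of 15 in the table, 0 to 2 of them at 0 in a group) had summed medians of 13.5 CPM at 3 d and 20.4 CPM at 10 d, against 8.94 CPM in intact glands under folic acid. The control medians were 14.4 CPM at 3 d and 23.7 CPM at 10 d, against 8.82 CPM. The part of liver, immune and muscle cells in the class I values was not tested.

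Diet made no difference that passed the test for any of the 10 genes, in any state. With edgeR 0 of 10 were called in the intact, 3 d and 10 d glands, in the mean over the 3 states and in both diet by castration interactions, where 0.0522%, 0.0671%, 0.119%, 0.35%, 0% and 0.0149% of all tested genes were called. At an unadjusted p under 0.05 there were 0, 0, 2, 0, 0 and 1 of the 10, and DESeq2 called 0 in each. H2-Q10 was higher on the folic acid diet in each group mean, by log2 0.40 ± 0.50 in intact glands, 0.62 ± 0.64 at 3 d and 0.63 ± 0.64 at 10 d, with 0.55 ± 0.34 for the mean of the states (edgeR adjusted p = 0.929, 0.921, 1 and 0.802). The libraries of both diets overlapped in every state. Leaving out 1 library moved the 10 d difference between 0.31 and 1.66 and the 3 d difference between 0.14 and 1.02, with no call. The interactions, which ask whether the change after castration differed between diets, were 0.22 ± 0.80 at 3 d and 0.23 ± 0.80 at 10 d (adjusted p = 1 and 0.984).

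**Figure D5:**
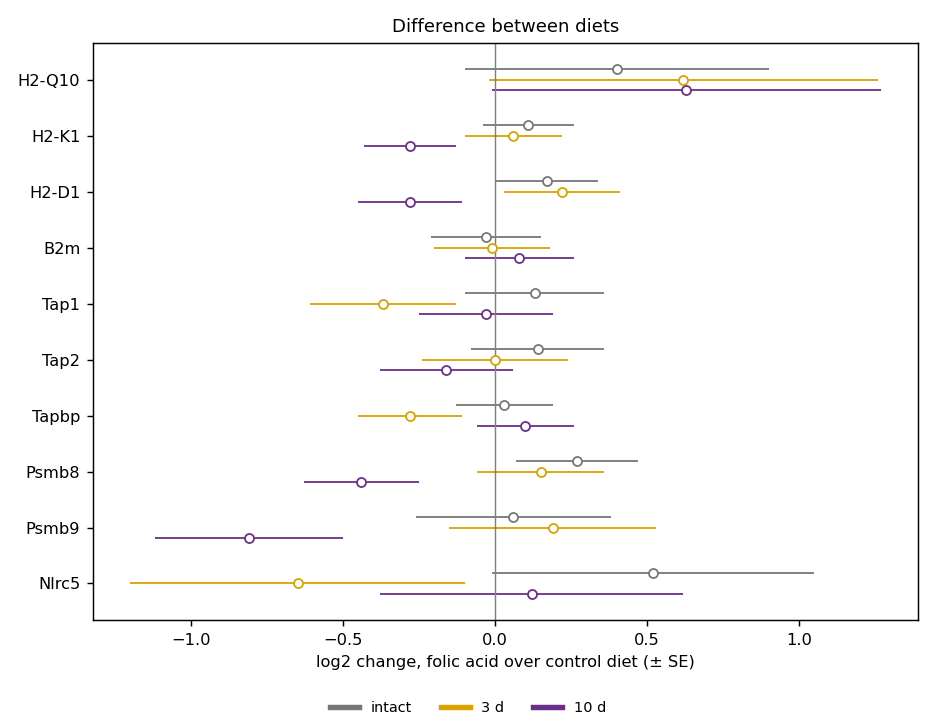
Log2 difference of each gene with its SE, folic acid over control diet, in intact, 3 d and 10 d glands. All circles are open because none passed the test. H2-Q10 lies at 0.40, 0.62 and 0.63 with the widest bars after castration, and Psmb9 has the lowest value, -0.81 at 10 d.

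As a ratio to H2-K1 plus H2-D1, H2-Q10 stood at 0.289% at 10 d on the folic acid diet, against 0.149% on the control diet. The mean log2 ratio differed by 1.36 (two-sided exact permutation p = 0.143, adjusted p = 0.429 over the 3 states). The ratio was 8.51% in folic acid intact glands, against 7.08% in control intact glands, a log2 difference of 0.31 (exact p = 0.486). At 3 d it was 0.55% on the folic acid diet, against 0.357% on the control diet, a log2 difference of 0.90 (exact p = 0.286) that was 0.10 without control 3 d replicate 4. Without 1 library the 10 d difference ranged between 0.86 and 1.94. Overlap between the diets was present in all 3 states. The smallest p these group sizes allow is 0.0286.

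Among the other 9 genes the diet differences of largest size were those of Psmb9 at 10 d and of Nlrc5, at -0.65 ± 0.55 at 3 d and 0.52 ± 0.53 in intact glands (edgeR adjusted p = 0.903 and 0.906). At 10 d Psmb9 stood at 8.78 ± 3.09 CPM (6.14 to 12.5) with folic acid, against 15.4 ± 4.34 CPM (11.4 to 20.9) with the control diet (SD), a log2 difference of -0.81 ± 0.31 (SE; edgeR adjusted p = 0.831). Psmb8 differed at 10 d by -0.44 ± 0.19 (edgeR adjusted p = 0.928), and its 10 d interaction was -0.71 ± 0.27 (adjusted p = 0.869). H2-K1 was the 1 gene of the 10 whose 10 d libraries were all lower on the folic acid diet, with no overlap, as were 1.57% of all tested genes (-0.28 ± 0.15, edgeR adjusted p = 1). The gap of H2-K1 was narrow, from 565 CPM at most with folic acid to 568 CPM at least with the control diet. Tap1 was the 1 gene with such a gap at 3 d, where 3.54% of all tested genes were lower without overlap (-0.37 ± 0.24, edgeR adjusted p = 0.857). It was narrow as well, from 20.4 to 20.9 CPM. In intact glands the other 9 genes differed by -0.03 to 0.52. A p above the threshold does not show that the diets gave the same level.

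Across the 23 libraries, genes among those whose log2 CPM was most like that of H2-Q10, by Pearson's r over 10521 genes above a minimum mean level, were Mlec (0.96), Fkbp5 (0.956), Fpgs (0.948), which encodes the enzyme that adds glutamate tails to folates, and Atp6v1c2 (0.942). The libraries fall into groups by state, and these values mainly describe that step. Fkbp5, a chaperone gene known as a target of the androgen receptor, stood at 78.4 ± 6.79 CPM at 3 d and 52 ± 5.4 CPM at 10 d, against 272 ± 51.7 CPM in intact glands on the folic acid diet (SD, n = 4 each). Atp6v1c2, which encodes a proton pump subunit, stood at 5.23 ± 2.28 CPM and 2.32 ± 1.36 CPM, against 47.5 ± 3.56 CPM, a log2 change of -3.19 at 3 d beside -4.45 for H2-Q10. The genes most like H2-K1 were other ones: Sc4mol (0.872), Sdf4 (0.866), Nme1 (0.855), Cope (0.851) and Psmc3 (0.848).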

How the data were processed

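Ventral prostate RNA of 23 mouse libraries in 6 groups of diet by state was analysed. The values deposited for each gene symbol are expected counts, the read numbers that RSEM estimates, not scaled between libraries. Tools named in the submitters' processing notes are bcl2fastq 2.17.1.14, Bowtie 0.12.9 and RSEM 1.2.3, with genome build mm10. Which annotation was used, on which strand reads were counted and how long they were is not given in the sources used here. Of the values 19.5% were not whole, and all were rounded. There was 1 column that no sample label described, and it was not used.

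Genes were filtered over the 6 groups (minimum count 10, minimum total 15), scaled with TMM and fitted in 1 edgeR 4.0.16 quasi-likelihood model in R 4.3.3 (robust, limma 3.58.1, 1 mean per group, 23 libraries), with 10 comparisons and Benjamini-Hochberg adjustment over all 13412 genes. Genes with an adjusted p under 0.05 are called. The biological coefficient of variation was 0.364. Each SE of a log2 change was derived from the quasi-likelihood test, as the size of the change divided by the square root of its F value. For the castration changes of H2-Q10 this SE is a description, and no p is read from it. Ratios of counts within a library (0.5 added to each) were compared with two-sided exact permutation tests. The edgeR fit was first run on simulated counts in which few, randomly picked genes changed, as many up as down. Such counts do not show how the scaling handles a fall like that of Sbp. The permutation test was checked on numbers with a known p, and DESeq2 was not run on simulated counts.

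The members and lists were chosen with earlier results of these data known. Named were all 10 members, up to 6 called pathway genes per comparison with the smallest p, and the 5 genes most like H2-Q10 and H2-K1. Some genes that these rules or lists include are not reported here. Further pathway genes (H2-T23, the Q-region genes, Irf1, Stat2, Lnpep, the proteasome genes and those under other observations) were named after their values were seen. Each library was taken as 1 mouse, and p-values measure the spread between these libraries. Libraries of a group all differed by more than counting noise (chi-square per degree of freedom at least 12.4). The labels do not say what the replicate numbers mark. Same-numbered libraries did not deviate together, which cannot exclude that some were paired. Alternatives were other size factors, library totals alone, no filter, DESeq2 1.42.0, only the groups compared, a replicate block, merged heavy chains, and leaving out libraries. Leaving out libraries for the castration ratio of H2-Q10 was added after the data were seen. Without strand, reads of a gene and of an antisense transcript cannot be told apart. Positions are from GENCODE M21 on GRCm38, promoters from RefSeq on GRCm38.p6.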

Additional observations from a re-analysis of the deposited data

How the results depend on the processing

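The 10 counts of members called stayed within 1.5 times of those reported with DESeq2, its size factors, no filter on low counts and merged heavy chains. Single calls were lost for B2m at folic acid 10 d with DESeq2's size factors (adjusted p = 0.0517) and for Psmb8 at control 3 d with no filter (0.0505). With merged chains 1 sum stood in for both H2-K1 and H2-D1, also in the counts of members, and neither gene was tested alone. That sum passed at folic acid 3 d (edgeR adjusted p = 0.0427), where H2-D1 alone did not. It did not pass at control 3 d (0.0729), where H2-K1 alone did. With only the groups compared the count at folic acid 10 d was 2 in place of 4 (H2-D1 0.0911 and B2m 0.121 lost), and without the 4 libraries that stand apart it was 1 (B2m). The replicate block gave 2, 4, 3 and 2 castration calls and 0 in each diet comparison, the same counts, and changed no member's call; same-numbered libraries did not deviate together (mean r 0.011, against -0.003 for different numbers, and 8 of 23 libraries correlated best with their own number). With library totals alone the castration counts were 5, 9, 6 and 8 (folic acid 3 d and 10 d, control 3 d and 10 d). At folic acid 3 d that scaling gave H2-K1 0.09, H2-D1 0.45, B2m 0.00, Tap1 0.25, Tap2 0.78, Tapbp 0.60 and Nlrc5 0.74, and at folic acid 10 d H2-K1 0.70, H2-D1 0.74, B2m 0.73, Tap1 0.93, Tap2 1.22, Tapbp 1.12 and Psmb9 1.03. At control 3 d it gave H2-K1 0.09, H2-D1 0.35 and Tap1 0.70, and at control 10 d H2-K1 0.96, H2-D1 1.06, B2m 0.48, Tap1 0.94 and Tapbp 0.92, all opposite in sign to the TMM value. The scaling itself moves all genes together, as its median shift shows. Without the 4 libraries Tap2 was 0.02 and 0.02 and Nlrc5 0.08 and -0.28 (folic acid 3 d and 10 d), the H2-Q10 interaction at 3 d was -0.04, and the Psmb9 to Psmb6 difference at folic acid 10 d was -0.06. Among ratios that passed, it gave Psmb8 to Psmb5 1.58, 1.22, 1.58 and 1.56, Psmb9 to Psmb6 0.72 (folic acid 3 d) and 0.74 (control 10 d) and Psmb10 to Psmb7 0.78, none past the threshold with the smaller groups. Leaving out 1 library at a time gave 1 to 3 calls at folic acid 10 d, 1 to 2 at control 3 d and 1 to 2 at control 10 d. The ranges without 1 library were 1.47 to 1.85, 1.30 to 1.47, 1.43 to 1.75 and 1.53 to 1.72 for Psmb8 to Psmb5, 0.68 to 1.01, -0.06 to 0.31 and 0.53 to 0.78 for Psmb9 to Psmb6 (folic acid 3 d and 10 d, control 10 d), and 0.58 to 0.78 for Psmb10 to Psmb7 (control 10 d). They were -0.12 to 0.00 for H2-D1 at control 10 d, -0.19 to 0.15 for Nlrc5 at folic acid 3 d, -0.20 to 0.58 for Psmb9 at control 3 d, -0.17 to 0.03 and -0.32 to 0.03 for Tap1 at control 3 d and 10 d, -0.18 to 0.16, -0.19 to 0.15 and -0.15 to 0.39 for Tap2 (folic acid 3 d and 10 d, control 3 d), -0.01 to 0.21 for Tapbp at control 3 d, and -0.26 to 0.62 and -0.09 to 1.26 for the H2-Q10 interactions at 3 d and 10 d. The causes of these changes were not tested. The depth limits H2-Q10 after castration most, where the lowest library held 5.36 estimated counts.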

Other observations

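Of 9 tested class I-like molecules, 0 rose and 1 fell in 3 of the castration comparisons (3 d and 10 d on the folic acid diet, 3 d on the control diet), and 1 rose and 1 fell at 10 d on the control diet. Azgp1, which encodes a soluble class I-like protein of body fluids, fell in all 4, by 0.65 and 1.51 on the log2 scale at 3 d and 10 d under folic acid and by 0.80 and 1.24 under the control diet, relative to most genes. Hfe, an iron-regulating class I-like gene, rose by 1.03 at 10 d on the control diet. Of 19 tested interferon-stimulated genes, 0 rose and 2 fell at 3 d and 1 rose and 4 fell at 10 d on the folic acid diet, and 2 rose and 2 fell at 3 d and 0 rose and 2 fell at 10 d on the control diet. Of all tested genes 14.3%, 21.9%, 9.98% and 16.6% were called in these 4 comparisons. Rsad2, an antiviral gene, fell under folic acid by 1.97 and 2.61 and under the control diet by 1.76 and 3.31 (edgeR adjusted p = 1.03e-05 at folic acid 10 d and 3.79e-07 at control 10 d). Bst2 fell by 1.57 at 3 d and 1.0 at 10 d under folic acid and by 0.86 at 3 d under the control diet, with -0.42 at 10 d there. Gbp2 rose by 1.30 at 3 d under the control diet, and its other values were 0.58 to 0.77.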
